A study of Mus musculus with 2 samples.

Results

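A set of 9 genes of the Hedgehog signalling pathway was described in total RNA of the mouse neural tube on embryonic day 13.5: the ligand gene Shh, the receptor and surface protein genes Ptch1, Hhip and Gas1, the signal transducer gene Smo, the inhibitor gene Sufu, and the transcription factor genes Gli1, Gli2 and Gli3. They were chosen by symbol, for their place in the pathway, and made up 9 of the 43346 mouse genes in the deposited tables. All 9 members were found and all 9 had a mean count of 10 or more. The tissue came from B6NCrl embryos of pooled sex, without a mutation or treatment, and 2 libraries were made from 10 ng of RNA each as biological replicates 1 and 2 of 1 group. There was therefore no comparison between conditions, and the libraries were set against each other. The labels name separate tissue samples but not whether these came from separate litters, so each SD measures the spread between these 2 samples. The libraries held 34125110 estimated reads in replicate 1 and 22311849 in replicate 2.

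Hedgehog ligands bind Ptch1 and thereby relieve its block on Smo, a membrane protein that then acts at the primary cilium. Active Smo frees the Gli factors from Sufu, and full-length Gli2 and Gli3 act as activators, whereas without ligand Gli3 in particular is cut to a repressor. Gli1 is made in response to the signal, as are Ptch1 and Hhip, which bind the ligand and limit its spread. In the vertebrate neural tube Shh is secreted by the notochord and then by the floor plate, and sets out the ventral progenitor domains. Since Gli3 is cut after translation, RNA levels do not distinguish its activator from its repressor form.

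The sequences before the start sites of 3 members are shown because 2 of them, Ptch1 and Hhip, are the target genes that the ratios to the ligand rest on, and because Gli2 held the most matches to the core of the Gli binding motif. RefSeq gave a window of 250 bases before to 50 bases after the start for 7 of the 9 members (GRCm38.p6), with none for Shh and Gli1. Each line gives the 250 bases before the start, 5′ to 3′ on the strand of the gene, which is the minus strand for all 3. Capitals mark the motif core CCACCC or its reverse complement GGGTGG.
Ptch1, chr13:63565736-63565985: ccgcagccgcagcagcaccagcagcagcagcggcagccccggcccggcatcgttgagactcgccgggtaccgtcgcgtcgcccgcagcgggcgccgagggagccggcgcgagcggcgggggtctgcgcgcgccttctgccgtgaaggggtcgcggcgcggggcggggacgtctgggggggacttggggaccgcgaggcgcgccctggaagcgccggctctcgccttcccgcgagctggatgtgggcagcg
Hhip, chr8:80058009-80058258: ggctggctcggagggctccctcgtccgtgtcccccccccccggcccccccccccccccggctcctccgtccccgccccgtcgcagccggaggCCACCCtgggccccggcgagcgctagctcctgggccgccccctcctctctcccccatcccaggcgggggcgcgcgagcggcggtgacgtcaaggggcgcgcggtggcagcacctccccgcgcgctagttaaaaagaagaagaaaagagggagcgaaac
Gli2, chr1:119053620-119053869: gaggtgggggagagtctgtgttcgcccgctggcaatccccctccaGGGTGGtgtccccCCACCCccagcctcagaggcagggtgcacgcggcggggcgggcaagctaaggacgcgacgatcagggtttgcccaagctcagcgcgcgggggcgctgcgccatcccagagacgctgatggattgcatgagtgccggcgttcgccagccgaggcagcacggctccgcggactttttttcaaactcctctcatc

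The 9-letter Gli consensus GACCACCCA, searched on both strands, was found in 0 of the 7 member windows and in 0.253% of all 32851 RefSeq windows of the same length. Its core CCACCC, which lies within the consensus, was found in 4 of the 7, against 31.5% of all windows. Gli2 held it on both strands, starting 205 and 192 bases before the start site. Gli3 held it at 170 bases, Smo at 162 bases and Hhip at 158 bases before theirs. The window of Ptch1 held none and was 76.3% G and C, against 73.7% for Hhip, 67.3% for Gli2 and a median of 52.7% over all windows. These matches are letters in a short window and say nothing of whether a Gli factor binds there or elsewhere.

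The inhibitor, the receptor with its co-receptor and the transducer were the higher members, and the Gli factors, Hhip and the ligand the lower ones. In TPM, transcript abundance normalised for transcript length and library depth, the order was Sufu, Gas1, Ptch1, Smo, Gli3, Hhip, Gli2, Gli1 and Shh. Of the 8 neighbouring pairs in that order, 6 overlapped, in that values of one gene's libraries reached those of the other. The pairs that did not overlap were Gas1 above Ptch1 and Smo above Gli3. Compared within each library, Gli3 was also above Hhip in both, by 1.28 times and 1.52 times, and Hhip above Gli2 in both, by 1.97 times and 1.39 times, although with the posterior mean TPM Hhip was under Gli2 in replicate 2, at 3.92 against 4.25 TPM. A gene counted as detected when each library had at least 1 TPM, and 9 of 9 members were, as were 13263 of 21474 protein-coding genes (61.8%). Detected protein-coding genes had a median of 18.5 TPM, so that Sufu and Gas1 lay near the middle of expressed genes and the others below it.

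**Figure D1:**
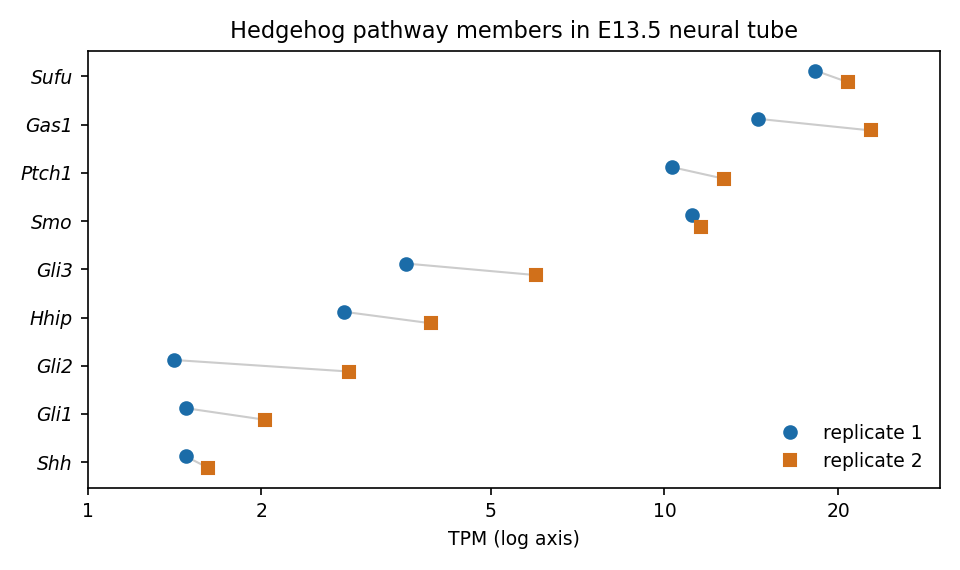
Level of each member in TPM on a log axis, with circles for replicate 1 and squares for replicate 2, joined by a line, in descending order of the mean. Sufu, Gas1, Ptch1 and Smo lay above 10 TPM in both libraries and the other 5 members below 6 TPM, and replicate 1 was the lower library for each member.

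Shh, which encodes the ligand Sonic hedgehog (ENSMUSG00000002633.3; chromosome 5, 28456815 to 28467256, minus strand), was the lowest member by its mean, although in replicate 1 Gli2 was lower and Gli1 equal to it. It had 1.48 TPM in replicate 1 and 1.62 TPM in replicate 2 (1.55 ± 0.0990, SD, n = 2), from 87.07 and 60.32 estimated reads. In replicate 1 it stood above 3.78% of detected protein-coding genes and in replicate 2 above 5.27%. The libraries lay close together, and their bounds of a TPM interval as deposited, at a level not stated, were 1.15 to 1.78 and 1.17 to 1.98 TPM. Foxa2, a transcription factor of the floor plate and notochord, had 1.49 TPM in replicate 1 and 1.62 TPM in replicate 2. Of the other notochord genes listed, Noto had 0 counts in both, which allows up to 3 counts. T had 11 counts in replicate 1 and 14 in replicate 2, at 0.36 and 1.08 TPM. The keratin genes Krt8, Krt18 and Krt19 had between 21 and 88 counts in each library. In a bulk sample, fewer cells of a type and less RNA per cell cannot be told apart.

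The other ligand genes differed in level. Dhh, whose product Desert hedgehog is made by Schwann cells and their precursors, was higher than Shh, with 3.67 TPM in replicate 1 and 2.99 TPM in replicate 2 (3.33 ± 0.481, SD, n = 2). It held 68.3% and 62.2% of the summed TPM of the 3 ligand genes, against 27.6% and 33.7% for Shh. Genes of Schwann cell precursors were present beside it, with 6 of 6 detected and summed levels of 77.97 TPM (replicate 1) and 69.58 TPM (replicate 2). The part of those cells in the level of Dhh was not tested. Ihh, the ligand gene of prehypertrophic cartilage, was under the detection level at 0.22 and 0.20 TPM, from 12 and 5 reads. Of the other 4 genes of prehypertrophic cartilage, Pth1r was detected at 12.83 and 15.24 TPM, Runx2 was at 0.43 and 1.72 TPM, Sp7 at 0.38 and 0.52 TPM and Col10a1 at 0.03 and 0.05 TPM. Of the 5 genes for ligand lipidation and release, 5 were detected, with Scube1 highest at 9.38 ± 0.467 TPM and the acyltransferase gene Hhat lowest at 3.36 ± 0.106 TPM (SD, n = 2 each).

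Ptch1, the Hedgehog receptor gene (ENSMUSG00000021466.7; chromosome 13, 63508328 to 63573598, minus strand), had 10.29 TPM in replicate 1 and 12.66 TPM in replicate 2 (11.5 ± 1.68, SD, n = 2), from 1570 and 1233 reads. Smo, the transducer that Ptch1 holds in check (ENSMUSG00000001761.6; chromosome 6, 29735503 to 29761365, plus strand), had 11.15 TPM in replicate 1 and 11.57 TPM in replicate 2 (11.4 ± 0.297, SD, n = 2). The ratio of Ptch1 to Smo was 0.923 in replicate 1 and 1.09 in replicate 2, and so fell on both sides of 1. Over protein-coding transcripts alone it was 0.747 and 0.922, under 1 in both.

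Gas1, a membrane-anchored co-receptor gene (ENSMUSG00000052957.7; chromosome 13, 60174405 to 60177365, minus strand), had 14.54 TPM in replicate 1 and 22.77 TPM in replicate 2 (18.7 ± 5.82, SD, n = 2), from 941 and 934 reads. It had the largest SD of the members in TPM. As a ratio its TPM in replicate 2 was 1.57 times that in replicate 1, less than for Gli2 (2.01 times) and Gli3 (1.68 times). Its place in the order changed between the libraries, below Sufu in replicate 1 and above it in replicate 2. Hhip, whose product binds ligand at the cell surface and blocks it (ENSMUSG00000064325.3; chromosome 8, 79965851 to 80058006, minus strand), had 2.78 TPM in replicate 1 and 3.94 TPM in replicate 2 (3.36 ± 0.820, SD, n = 2). The co-receptor gene Boc was at 8.68 and 10.99 TPM. Among the 7 receptor and co-receptor genes the proteoglycan gene Gpc3, whose product binds Hedgehog in competition with the receptor, was highest at 102.03 and 144.27 TPM. Lrp2, a large endocytic receptor gene, was lowest and under the detection level, at 0.44 and 0.29 TPM.

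Sufu, which encodes the cytoplasmic inhibitor of the Gli factors (ENSMUSG00000025231.12; chromosome 19, 46396896 to 46488804, plus strand), was the highest member by its mean and in replicate 1. It had 18.27 TPM in replicate 1 and 20.79 TPM in replicate 2 (19.5 ± 1.78, SD, n = 2), from 1679 and 1185 reads, and stood above 50.7% and 53.7% of detected protein-coding genes. Its TPM was 2.83 times the summed TPM of Gli1, Gli2 and Gli3 in replicate 1 and 1.92 times in replicate 2. Of the 8 negative regulators at the cilium, 8 were detected. They were led by the protein kinase A subunit gene Prkar1a at 359 ± 22.3 TPM, and the ciliary kinesin gene Kif7 was lowest at 1.42 ± 0.219 TPM. Among the 7 genes of Smo and its ciliary partners, Arrb2 was highest at 34.4 ± 1.05 TPM and Evc lowest at 3.79 ± 1.49 TPM. Of the 7 genes that process or degrade Gli proteins, the kinase gene Csnk1a1 was highest at 210.2 ± 19.5 TPM and Ulk3 lowest at 10.3 ± 0.785 TPM.

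**Figure D2:**
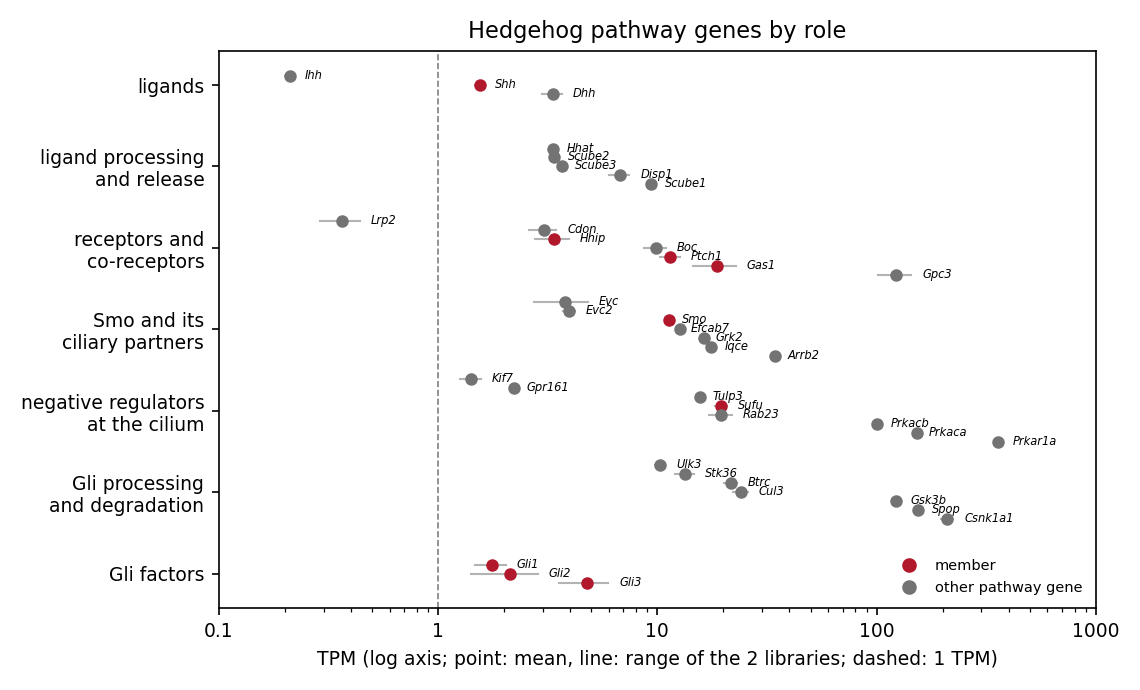
Mean TPM on a log axis of 40 pathway genes in rows by role, with members in red, other genes in grey, a line for the range of the 2 libraries and a dashed line at 1 TPM. Ihh and Lrp2 are the genes left of that line, Gpc3 and Prkar1a stand far to the right in their rows, and the 3 Gli genes lie at the low end of the axis.

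Gli3 was the highest of the Gli genes in both libraries. Gli3 (ENSMUSG00000021318.11; chromosome 13, 15463235 to 15730026, plus strand) had 3.56 TPM in replicate 1 and 5.98 TPM in replicate 2 (4.77 ± 1.71, SD, n = 2), from 457.73 and 498.66 estimated reads. Gli2, the main activator gene (ENSMUSG00000048402.10; chromosome 1, 118834132 to 119053619, minus strand), had 1.41 TPM in replicate 1 and 2.84 TPM in replicate 2 (2.13 ± 1.01), from 200 reads in each. Gli1, the target gene and activator (ENSMUSG00000025407.6; chromosome 10, 127329882 to 127341974, minus strand), had 1.48 TPM in replicate 1 and 2.03 TPM in replicate 2 (1.76 ± 0.389), from 119 and 104 reads. Gli3 held 55.2% and 55.1% of the summed Gli TPM. Gli1 held 22.9% and 18.7% of it and Gli2 21.9% and 26.2%. In these TPM the share of Gli3 was nearly the same in both libraries, while those of Gli1 and Gli2 traded places. Over protein-coding transcripts alone the share of Gli3 was higher in replicate 2. There the ratio of Gli1 to Gli3 was 0.529 and 0.402 and that of Gli2 to Gli3 0.507 and 0.446. With the posterior mean TPM Gli1 and Gli2 did not trade places.

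The ratio of Gli1 to Gli3 was 0.416 in replicate 1 and 0.339 in replicate 2 (0.378 ± 0.0539, SD, n = 2), under 1 in both libraries. Counted over protein-coding transcripts alone it was 0.529 and 0.402. The ratio of Gli2 to Gli3 was 0.396 in replicate 1 and 0.475 in replicate 2 (0.435 ± 0.0558). The ratio of Gli1 to Gli2 was 1.05 in replicate 1 and 0.715 in replicate 2, on both sides of 1. With the deposited posterior mean TPM it was 0.625 and 0.466, and so under 1 in both. In replicate 1 the order of Gli1 and Gli2 therefore depended on which of the deposited estimates was used. In replicate 2 Gli2 was the higher with both.

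Ptch1 and Hhip exceeded the ligand gene Shh in both libraries, and Gli1 was level with Shh in replicate 1. Against Dhh, at 3.67 and 2.99 TPM, Ptch1 was higher and Gli1 lower in both libraries. Hhip was lower than Dhh in replicate 1 and higher in replicate 2. The ratio of Ptch1 to Shh was 6.95 in replicate 1 and 7.81 in replicate 2 (7.38 ± 0.610, SD, n = 2), and that of Hhip to Shh 1.88 and 2.43 (2.16 ± 0.392). The ratio of Gli1 to Shh was 1 in replicate 1 and 1.25 in replicate 2. Ptch1 was 6.95 times and 6.24 times as high as Gli1, although both are targets of the signal. These ratios have 2 values each and were not tested.

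Each of Shh, Smo, Gli1 and Gas1 had 1 transcript in the annotation, and the other 5 members divided their TPM among several. Ptch1, which is known to use several first exons, had 5 of 8 transcripts above 0 in both libraries. The coding transcript Ptch1-202 held 70.7% of the TPM in replicate 1 and 78.9% in replicate 2. It starts 9063 bases downstream of the first annotated start of the gene, and Ptch1-201, whose start the RefSeq window marks, starts 7863 bases downstream. Ptch1-201 held 6.2% and 2.18%. The transcripts that begin at the first starts, Ptch1-204 and Ptch1-205, together held 20.8% and 18.0% (19.4 ± 2.00, SD, n = 2). Most of that belonged to Ptch1-204, a transcript annotated for nonsense mediated decay, at 16.9% and 14.8%. The posterior SD of its count was 47.1 and 39 reads beside estimates of 296.8 and 203.2 reads.

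The full-length coding transcript Gli3-201 held 58.3% of Gli3 TPM in replicate 1 and 61.1% in replicate 2. The short coding Gli3-202 held 20.5% and 23.2%, and Gli3-203, annotated as a retained intron, held 21.2% and 15.7%. By estimated reads the long transcript had most, with 378.2 and 422.8, since TPM weighs a read on a short transcript more. Hhip-201 held 86.0% and 75.5% of Hhip TPM, with the remainder on the noncoding Hhip-202 from 7.16 and 11.19 reads. Sufu-201 held 86.7% and 83.2% of Sufu TPM and Sufu-202, a shorter coding transcript, 8.45% and 14.3%.

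Gli2 had the least certain division. Gli2-201, its full-length coding transcript, held 94.6% of Gli2 TPM in replicate 1 and 71.2% in replicate 2. In replicate 2 the nonsense mediated decay transcript Gli2-205 held 20.7%, from 8.4 estimated reads, and in replicate 1 it held 0%. The gene's TPM in replicate 2 was 2.01 times that in replicate 1, whereas its reads scaled to library size were 1.51 times. Its TPM also lay under the lower bound of the deposited interval in both libraries, 1.41 TPM against a bound of 1.68 in replicate 1 and 2.84 TPM against 3.04 in replicate 2. The posterior mean TPM of Gli2 was 2.32 in replicate 1, against 4.25 in replicate 2.

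**Figure D3:**
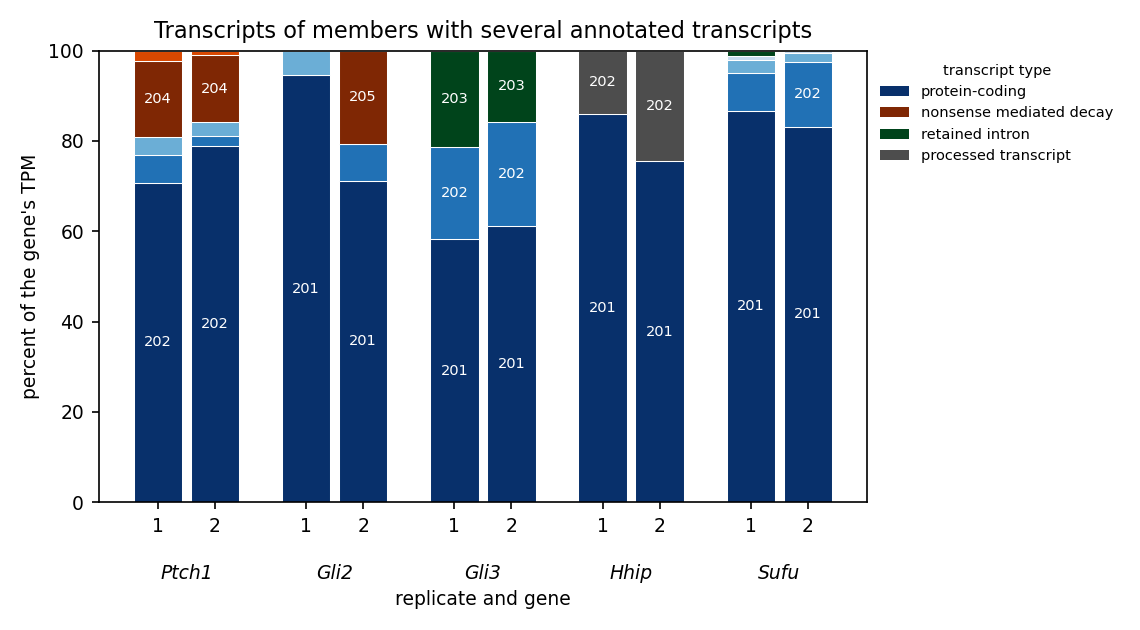
Percent of each gene's TPM held by each of its transcripts, as stacked bars with replicate 1 left of replicate 2 for the 5 members with several transcripts; colour gives the annotated type, shades separate transcripts of one type, and shares of 9% or more carry the transcript number. Ptch1-202 held 70.7% and 78.9%, and Gli2-205 appears in replicate 2 alone, at 20.7%.

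Some members share exon bases with a gene on the opposite strand, and the handling of strand is not given in the sources used here, so reads there cannot be told apart. Gli1 shares 62 bases with Arhgap9, at 37 and 16 reads over that whole gene, and 265 bases with Gm47200. Shh shares 361 bases with Gm26894 and 446 with 9530036O11Rik, which had 6.85 and 9.52 and 2.08 and 3.16 reads. Gas1 shares 589 bases with Gm48488, Gli3 188 with Gm6556 and Hhip 175 with Gm27820.

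Between the libraries, 4 of the 9 members differed, all 4 lower in replicate 1: Gli3, Gli2, Gas1 and Ptch1. Each gene's rounded counts were set against the library shares by a two-sided exact binomial test with Benjamini-Hochberg adjustment over 17428 genes. The test compares these libraries with counting noise and carries no biological variation. Of all tested genes 12.8% were lower in replicate 1 at an adjusted p under 0.05 and 11.8% were higher, and 6028 had an unadjusted p under 0.05. With a difference of at least 2-fold also required, 2.25% of all tested genes and 0 of the 9 members were called, beside the 4 members at adjusted p alone. The log2 ratio, replicate 1 over replicate 2, was under 0 for 8 of the 9 members and for 50.01% of all tested genes. Its median size without sign was 0.29 over the members and 0.14 over all tested genes. The biological coefficient of variation between the libraries, over all genes in the fit, was 9.23%.

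Gli3 and Gli2 had the log2 ratios farthest from 0 among the members. Gli3 had a log2 ratio of -0.72 (95% counting interval -0.91 to -0.54; adjusted p = 7.83e-13 by the exact binomial test) and Gli2 one of -0.60 (-0.89 to -0.31; adjusted p = 0.000449). Gli3 lay under the 5th percentile of all tested genes, -0.60, and Gli2 lay at it. Gli1 had a log2 ratio of -0.41 (-0.80 to -0.01; adjusted p = 0.122 by the same exact test). Gas1 had a log2 ratio of -0.59 (-0.72 to -0.46; adjusted p = 1.4e-16) and Ptch1 one of -0.25 (-0.36 to -0.14; adjusted p = 7.91e-05), again by the exact binomial test. Hhip was at -0.29 (-0.56 to -0.02; exact adjusted p = 0.11) and Sufu at -0.10 (-0.20 to 0.01; exact adjusted p = 0.207). Smo was at 0.01 (-0.14 to 0.16), and Shh at -0.07 with an interval of -0.55 to 0.44, which the depth leaves wide. Scaled to spike-ins, Gli1 at -0.49, Hhip at -0.38 and Sufu at -0.18 also passed, for 7 of 9 members, with the median of all genes moved by -0.09.

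**Figure D4:**
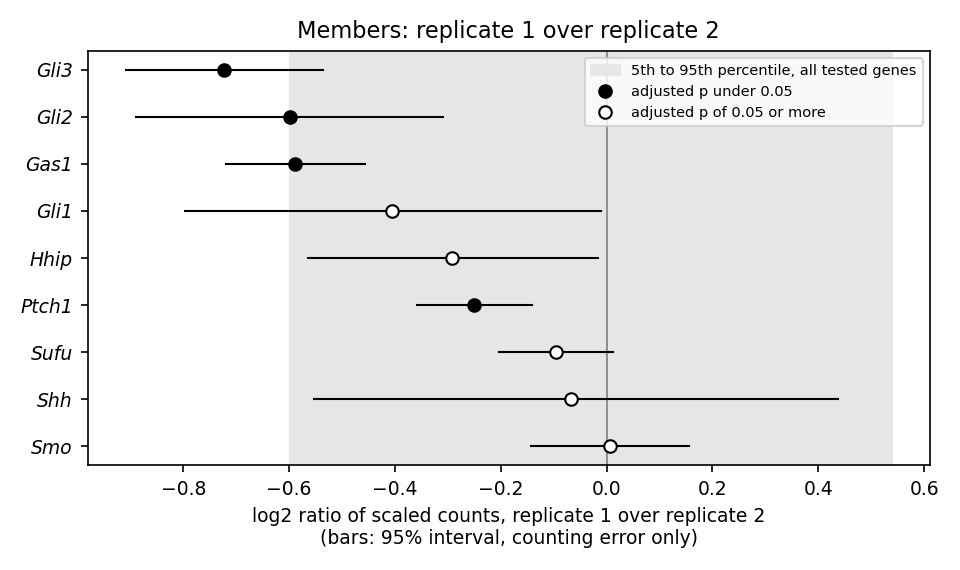
Log2 ratio of scaled counts, replicate 1 over replicate 2, for each member, with bars for the 95% interval of counting error, filled points for an adjusted p under 0.05 and a grey band for the 5th to 95th percentile of all tested genes (-0.60 to 0.54). Gli3 lies left of the band, Gli2 at its edge, and Smo, Shh and Sufu have intervals across 0.

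Most other pathway genes did not pass the test between the libraries. At an adjusted p under 0.05, 8 of the 30 tested genes outside the 9 members were lower and 1 was higher in replicate 1. Of all tested genes 12.8% were lower and 11.8% higher at that threshold. The median log2 ratio of the 30 was -0.07. Gpc3 was lower in replicate 1, with a log2 ratio of -0.44 (adjusted p = 1.06e-45 by the exact binomial test), as was Boc at -0.28 (exact adjusted p = 0.00152). Evc, a ciliary partner of Smo, was lower at -0.64 (exact adjusted p = 0.000646). The 1 higher gene was Prkaca, which encodes a protein kinase A catalytic subunit, at 0.07 (exact adjusted p = 0.0497). Boc and Prkaca were named after their values were seen. The ligand gene Dhh was at 0.35 (exact adjusted p = 0.15).

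Genes that Hedgehog signalling is known to induce or repress along the neural tube were mostly detected. Of 6 ventral genes, 5 were detected, led by the progenitor factor gene Nkx6-1 at 5.75 and 5.82 TPM, with Nkx2-9 lowest at 0.08 and 0.12 TPM from 2 reads in each library. Of the 5 tested, Nkx2-2 was higher in replicate 1 (log2 ratio 0.81, exact adjusted p = 0.00731) and Nkx6-2 lower (-0.48, exact adjusted p = 0.022), both named after their values were seen. Of 8 dorsal genes, 7 were detected, led by Msx1 at 14.81 and 18.49 TPM, with Pax7 lowest at 0.38 and 0.53 TPM. At an adjusted p under 0.05 by the exact binomial test, 5 of these 8 were lower and 1 was higher in replicate 1. Of all tested genes 12.8% were lower and 11.8% higher at that threshold. The log2 ratio was under 0 for 7 of the 8, against 50.01% of all tested genes, with a median of -0.40 over the 8. The ventral list summed to 18.3 TPM in replicate 1, against 18.8 TPM in replicate 2, and the dorsal list to 50.7 and 62.5 TPM.

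Markers of cartilage, muscle and epidermis were mostly lower in replicate 1, as were the members that differed. Genes counted as lower here had an adjusted p under 0.05 by the exact binomial test, as did 12.8% of all tested genes. By sign alone, the log2 ratio was under 0 for 9 of 9 sclerotome and cartilage genes and 7 of 7 muscle genes. It was under 0 for 4 of 5 epidermal genes and 6 of 6 tested notochord genes, against 50.01% of all tested genes. Among those notochord genes Foxa2 at -0.02, Shh at -0.07 and T at -0.93 had counting intervals across 0. Sclerotome and cartilage genes summed to 121.4 TPM in replicate 1, against 179.5 TPM in replicate 2, and 8 of 9 were lower in replicate 1, with a median log2 ratio of -0.77. Pax1, a sclerotome factor gene that Hedgehog induces, had 1.29 and 7.31 TPM. Skeletal muscle genes summed to 121.5 and 208.3 TPM, with 6 of 7 lower in replicate 1 and a median of -1.65. Epidermal genes summed to 6.95 and 16.9 TPM, with 4 of 5 lower and a median of -2.01. Notochord genes, among them Shh and Foxa2, summed to 5.87 and 12.6 TPM, with 2 of 6 tested lower, both keratin genes. Most of the difference in that sum lay in the keratin genes, with Krt8 at 0.67 and 3.6 TPM and Krt18 at 1.05 and 3 TPM. Krt19 had 0.82 and 1.69 TPM and T 0.36 and 1.08 TPM. Shh had 1.48 and 1.62 TPM and Foxa2 1.49 and 1.62 TPM. Whether the keratin reads came from notochord or from other tissue was not tested. The part of these tissues in the levels or library differences of the members was not tested.

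Among markers within the neural tube and its nerves, floor plate, Schwann cell precursor and oligodendrocyte precursor genes had medians above 0. Neural progenitor, neuronal and motor neuron genes had medians near 0. The list of dorsal genes had a median log2 ratio of -0.40, from -0.91 for Msx2 to 0.53 for Dbx2, with Pax6 at -0.06. Whether the reads of that list came from the neural tube or from other tissue was not tested. Floor plate genes summed to 158.7 TPM in replicate 1, against 143.6 TPM in replicate 2, with a median log2 ratio of 0.21. At an adjusted p under 0.05 by the exact binomial test, 4 of 8 were higher in replicate 1 and 0 lower. By sign alone, 1 of the 8 had a log2 ratio under 0, against 50.01% of all tested genes. Of all tested genes 11.8% were higher and 12.8% lower at that threshold. At the same threshold, Schwann cell precursor genes had 3 of 6 higher, with a median of 0.22. Oligodendrocyte precursor genes had 3 of 6 higher and 1 lower, with a median of 0.17. Neural progenitor genes summed to 2935 and 2834 TPM with a median of -0.01. Neuronal genes had a median of 0.08 and motor neuron genes one of 0.00. The remaining lists, meninges and mesenchyme, endothelium, red blood cells and prehypertrophic cartilage, had medians of -0.08, -0.06, -0.02 and -0.41, the last over 3 tested genes.

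**Figure D5:**
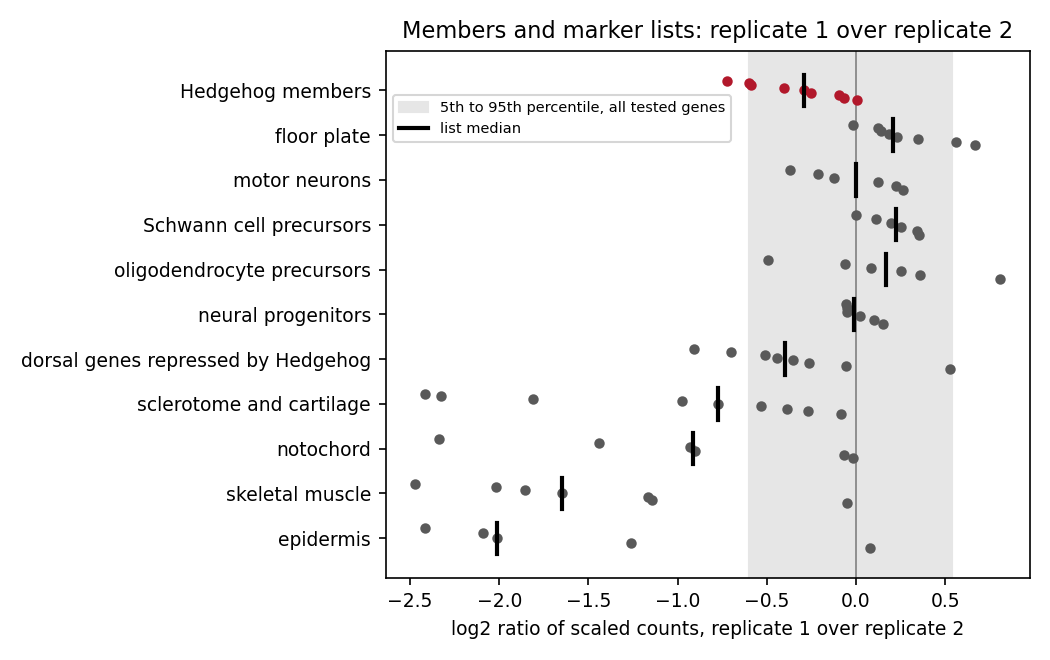
Log2 ratio of scaled counts, replicate 1 over replicate 2, of each tested gene of the members and of 10 marker or target lists, with a bar for each list's median and a grey band for the 5th to 95th percentile of all tested genes. The medians were -0.29 for the members, -0.40 for the dorsal genes and -0.77 for sclerotome and cartilage. They were -1.65 for skeletal muscle and -2.01 for epidermis, against 0.21 for floor plate.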

How the data were processed

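Total RNA was measured in 2 neural tube libraries. The authors' deposited tables hold, per the file headers, expected counts (estimated reads), TPM, FPKM, posterior means with their posterior SDs (other values, in reads), a signal of TPM interval bounds at a level not stated, and isoform percent, for genes and transcripts. The submitters' notes name assembly mm10 and annotation GENCODE M4. Aligner, quantifier and strand setting: not given in the sources used here. Spike-ins held 13.0% and 12.6% of TPM.

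Names and coordinates came from GENCODE M21 (GRCm38), which matched 42462 identifiers without their version. Expected counts were rounded and scaled by TMM (edgeR 4.0.16, R 4.3.3) keeping genes whose mean count reached 10; the edgeR spread has 1 degree of freedom. Exact binomial tests used SciPy 1.17.1, and 0.5 was added to counts for log2 ratios. DESeq2 1.42.0 size factors were an alternative. The script was tested on simulated data. Reads carry no molecular identifiers as far as stated, so intervals and floors cover counting error only.

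The members, lists and tests were chosen with earlier results of these data known. Besides the 9 members, the rule named the highest and lowest gene of each pathway list and any called at 2-fold. A planned protein comparison was not run, and 1 gene of the pathway lists is not reported here.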

Additional observations from a re-analysis of the deposited data

How the results depend on the processing

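With FPKM, the 7 ratios between members stayed on the same side of 1 in each library, or at 1. Over protein-coding transcripts only, the mean ratio of Gli1 to Gli3 was 0.465, of Ptch1 to Shh 6.11, of Hhip to Shh 1.73 and of Ptch1 to Smo 0.835, the last under 1 in both libraries, since noncoding transcripts of these genes were left out. With posterior mean TPM, Gli1 to Gli2 was 0.545, under 1 in both libraries, and Gli2 to Gli3 0.652. Members at an adjusted p under 0.05 numbered 7 when scaled to spike-ins, which adds Gli1 (adjusted p = 0.042 by the exact binomial test), Hhip (exact, 0.022) and Sufu (exact, 0.0044), and the same 4 with DESeq2 size factors, total counts, no filter on low counts or 1 added to each count. At 1.5-fold in place of 2-fold, 709 genes and 3 members were called, against 392 and 0. Detected pathway genes numbered 34 of 40 at 2 TPM and 38 at 0.5 TPM. Leaving out a library leaves no comparison between libraries, and member levels are then the other library's value. No paired analysis was possible because there is 1 group. Depth limits Shh, Gli1, Gli2 and Hhip, with under 250 reads in each library.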
